A study of Mus musculus with 6 samples.

Results

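Pomc, Agrp, Cartpt, Trh, Gal, Nts and Ucn3 are 7 genes that encode secreted neuropeptides of the hypothalamus and of regions wired to it, and they are described here across the 6 coronal brain sections of a mouse ageing study. The 7 were chosen by name, as 7 of the 32285 genes in the count tables, and not by their values. A spot was called high for a gene when it held at least 5 unique molecular identifiers (UMIs), each of which stands for 1 captured transcript. By that rule 1036 spots were high for Cartpt, 358 for Nts, 214 for Trh, 148 for Gal, 54 for Pomc, 37 for Ucn3 and 7 for Agrp, out of 16741 spots.

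The study compared male mice of the inbred strain C57BL/6J at 6 months (young), 18 months (middle) and 21 months (old). Each age has 2 sections of frozen brain, which by the labels come from 2 males, and a section was counted as 1 animal. Nothing in the labels describes a genetic change or a treatment in any group. All were cut at 16 µm and aimed at one level, -1.655 mm from Bregma or section 71 of the Allen reference atlas. Visium slides capture transcripts on a grid of barcoded spots, and a spot covers a small area that can hold several cells, so fewer cells with a transcript and less transcript per cell cannot be told apart. Middle 2 and old 2 were on slide 2, and the other 4 sections were on slide 1.

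Neuropeptide genes are transcribed in small groups of neurons, and each precursor is packed into dense-core granules and cut by prohormone convertases before release. Pomc and Agrp mark opposed neurons of the arcuate nucleus. The precursor made from Pomc yields melanocyte-stimulating hormone, which acts on melanocortin receptors to reduce feeding, and Agrp encodes the antagonist of those receptors. Cartpt encodes a peptide that is found beside both Pomc and melanin-concentrating hormone (Pmch) in the hypothalamus. Trh encodes thyrotropin-releasing hormone, which paraventricular neurons release to drive the pituitary and thyroid. Gal and Nts encode galanin and neurotensin, peptides of feeding, sleep and reward circuits. Ucn3 encodes urocortin 3, a ligand of the stress peptide receptor Crhr2, and is known from the perifornical hypothalamus and the medial amygdala.

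In GENCODE M21 (GRCm38) Pomc lies on chromosome 12 at 3954951 to 3960642 (plus strand), Cartpt on chromosome 13 at 99898489 to 99901091 (minus), Trh on chromosome 6 at 92242061 to 92244650 (minus) and Gal on chromosome 19 at 3409915 to 3414544 (minus). Nts lies on chromosome 10 at 102481756 to 102490486 (minus) and Ucn3 on chromosome 13 at 3940688 to 3945349 (minus). None of these 6 overlaps another annotated gene. Agrp is annotated on chromosome 8 from 105566698 to 105637393 (minus), a span of 70.7 kb that overlaps 7 other annotated genes, 2 of them on the same strand. The part of these genes in the Agrp counts was not tested.

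The bases upstream of 3 of the genes are shown because Pomc and Cartpt were high in many of the same spots, whereas most Nts-high spots lay in another cluster. Each is the 250 bases before the RefSeq start (GRCm38.p6), written 5′ to 3′ on the gene's strand. Capitals mark a match to 1 of 3 short motifs searched on both strands, namely the TATA box TATAAA, the cAMP response element TGACGTCA and the AP-1 site TGAGTCA. The Pomc sequence is chr12:3954695-3954944 (plus), that of Cartpt is chr13:99900684-99900933 (minus) and that of Nts is chr10:102490419-102490668 (minus). By the GENCODE M21 coordinates above, the Cartpt window lies inside the annotated gene and the Nts window overlaps its gene. RefSeq and GENCODE thus place the starts of Cartpt and Nts differently.
Pomc: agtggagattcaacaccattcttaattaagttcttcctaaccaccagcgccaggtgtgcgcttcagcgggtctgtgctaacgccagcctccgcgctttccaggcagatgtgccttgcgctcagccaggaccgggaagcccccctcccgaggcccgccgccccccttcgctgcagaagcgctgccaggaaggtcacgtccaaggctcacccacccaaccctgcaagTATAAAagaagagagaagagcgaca
Cartpt: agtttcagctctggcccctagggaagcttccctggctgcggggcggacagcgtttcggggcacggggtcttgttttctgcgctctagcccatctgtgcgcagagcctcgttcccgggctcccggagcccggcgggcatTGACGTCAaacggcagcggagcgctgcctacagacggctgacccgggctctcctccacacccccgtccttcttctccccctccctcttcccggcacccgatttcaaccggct
Nts: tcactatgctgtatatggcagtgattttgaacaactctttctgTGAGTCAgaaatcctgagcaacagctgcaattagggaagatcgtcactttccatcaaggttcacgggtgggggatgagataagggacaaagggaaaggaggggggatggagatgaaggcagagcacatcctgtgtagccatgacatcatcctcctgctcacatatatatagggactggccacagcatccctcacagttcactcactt
The Pomc window holds TATAAA at 25 to 20 bases before the start, the usual place of a TATA box, and 12.4% of the 32851 promoters of the same length hold that motif. The Cartpt window holds the cAMP response element at 112 to 105 bases before the start, as do 1.55% of promoters. The Nts window holds the AP-1 site at 207 to 201 bases before the start, as do 4.46% of promoters. Trh, Gal and Ucn3 have none of these letters in their windows. A match describes the letters only, and no binding was measured.

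The sections held between 2573 and 2973 spots with a median of 20370 to 30093 UMIs per spot, lowest in the old sections. Of 3389 distinct spot barcodes, 1920 were in all 6 sections, since barcodes name positions on the slide. Spots were grouped by their transcripts into 25 clusters without the 7 genes, and 2 clusters took the name of the hypothalamus from its markers. The first was led by Hcrt, Pmch, Avp and Oxt (1093 spots) and is called the Hcrt and Pmch cluster below. The second was led by Baiap3, Hap1 and Gpr101 (852 spots), is called the Baiap3 and Hap1 cluster, and also held 4 markers of the medial and central amygdala among its 50 leading genes. Together they are called hypothalamic spots, with 335, 198, 372, 404, 278 and 358 spots in young 1, young 2, middle 1, middle 2, old 1 and old 2.

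The 6 sections did not cut the hypothalamus at the same place. Oxytocin transcripts (Oxt), which mark the paraventricular and supraoptic nuclei, counted 5382 UMIs in young 1, 1803 in middle 1 and 35467 in old 1, but 33 in young 2, 65 in middle 2 and 52 in old 2. Pmch, a marker of the lateral hypothalamus, had 14321, 45036, 69875 and 27017 UMIs in young 2, middle 1, middle 2 and old 2, but 49 each in young 1 and old 1. Young 1 and old 1 thus held Oxt with little Pmch, young 2, middle 2 and old 2 held Pmch with little Oxt, and middle 1 carried both Oxt and Pmch. Ghrh, a gene of arcuate neurons, counted 69, 27, 125, 316, 48 and 52 UMIs from young 1 to old 2 and was highest in the middle sections. Each age had sections at different levels, and sections with like markers still differed. Hippocampus clusters took up 2.49% of spots in young 1 and 9.65% in old 1. Age and placement cannot be told apart for the arcuate nucleus.

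**Figure D1:**
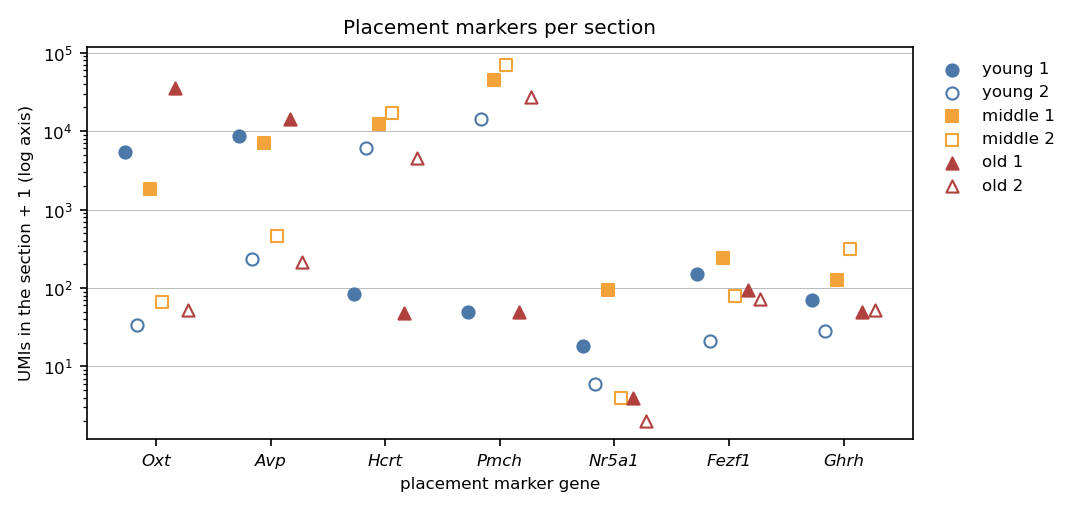
Total UMIs (plus 1, log axis) of 7 placement markers in each section, with 1 symbol per section. Oxt is high in young 1, middle 1 and old 1, Pmch is at 49 UMIs in young 1 and old 1 and at 14321 or more elsewhere, and Ghrh is highest in middle 2.

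Cartpt was the most widespread, with 79 to 298 high spots per section, and Agrp passed the threshold in 1 section only, middle 2. Pomc had high spots in all 4 young and middle sections and in neither old section. Ucn3-high spots numbered 10 and 9 in the old sections and 3 to 6 in the others. With spots thinned to 10000 UMIs and shallower spots left out (2381 to 2670 spots kept per section), spots with at least 2 UMIs numbered 7, 12, 3, 10, 10 and 17 for Ucn3, so that young 2 lay above old 1. For Pomc they numbered 24, 23, 35, 22, 7 and 5, with the old sections lowest. Just inside the threshold, at exactly 5 UMIs, lay 163 spots for Cartpt, 92 for Nts, 50 for Trh, 31 for Gal, 7 for Pomc, 6 for Ucn3 and 0 for Agrp. Just outside it, at 4 UMIs, lay 246, 115, 83, 56, 13, 20 and 2 spots of the same genes.

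**Figure D2:**
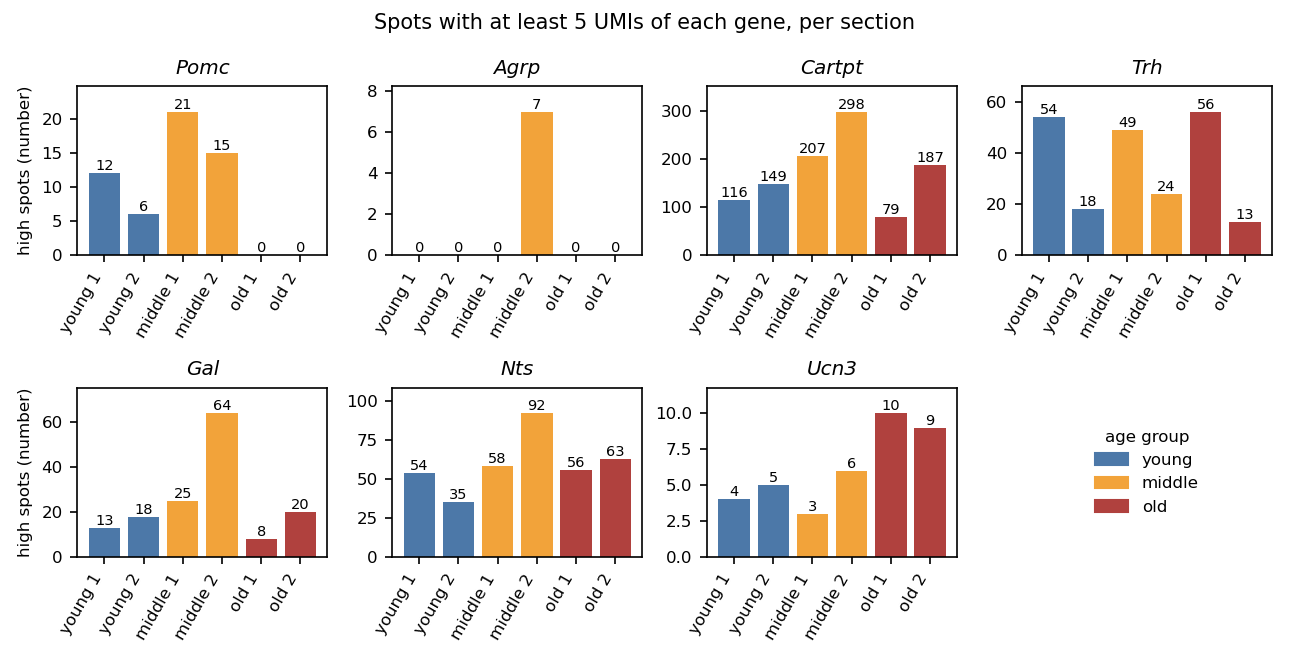
Number of spots with at least 5 UMIs of each gene, 1 bar per section, coloured by age group, with the count above each bar. Pomc stands at 12, 6, 21, 15, 0 and 0, and Trh is higher in young 1, middle 1 and old 1 (49 to 56) than in the other sections (13 to 24).

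The share of these transcripts inside high spots differed between genes. High spots held 75.6% of all Cartpt UMIs, 59.6% of Ucn3, 53.4% of Nts, 50.6% of Trh, 48.6% of Gal, 36.8% of Agrp and 23.7% of Pomc. For Pomc that share was 50.5% in middle 1, 12.6% to 26.8% in the other young and middle sections and 0 in the old ones. The share of high spots that lay in hypothalamic spots was 97.3% for Ucn3, 87.8% for Gal, 74.1% for Pomc, 70.6% for Trh, 68.4% for Nts, 57.1% for Agrp and 54.6% for Cartpt. These shares follow the cluster names. For Ucn3 (27 spots) and Nts (192 spots) most of them lay in the Baiap3 and Hap1 cluster, which also held markers of the medial and central amygdala. They need not be shares of hypothalamic tissue.

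**Figure D3:**
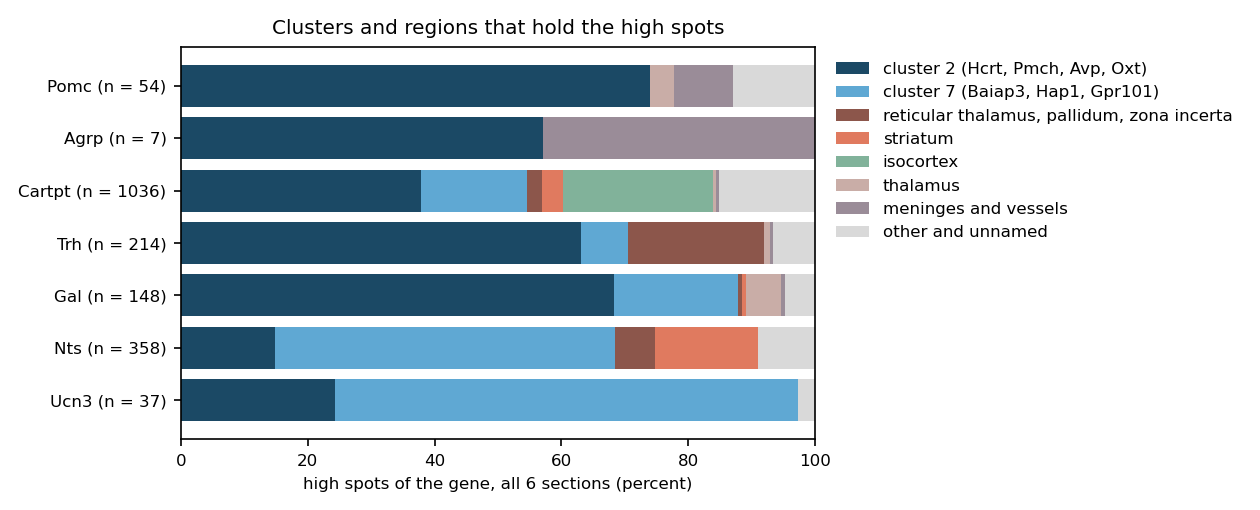
Percent of each gene's high spots that lay in each cluster or region, all 6 sections pooled, with the number of high spots beside the gene. Over the pooled sections the Hcrt and Pmch cluster holds most Pomc, Trh and Gal spots, and the Baiap3 and Hap1 cluster most Nts and Ucn3 spots. In clusters named isocortex only Cartpt has high spots (23.6%). Clusters that best matched isocortex but stayed unnamed are counted under other and unnamed.

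Pomc-high spots fell into separate kinds. The 54 high spots were 12 in young 1, 6 in young 2, 21 in middle 1 and 15 in middle 2, and the highest single spot held 33, 18, 81 and 27 UMIs in those sections. In old 1 and old 2 no spot held more than 3 Pomc UMIs. By counting error alone, a count of 0 allows shares of up to 0.101% and 0.105% of spots, against 0.214% to 0.768% found in the other sections. These limits take the spots of 1 section as independent and do not cover differences between animals or in placement. Whole-section Pomc was 734, 603, 1003, 665, 419 and 364 UMIs, or 9.54, 7.77, 13.2, 8.84, 6.07 and 5.97 CPM (UMIs of the gene per 1000000 UMIs of the section). The old sections were lowest, and the young and middle ranges overlapped. Outside high spots Pomc was 7.77, 6.80, 6.53, 6.50, 6.07 and 5.97 CPM, a narrower range. In isocortex spots, a region that should lack Pomc neurons, 11.6% to 18.8% of spots per section still held a Pomc UMI (median depth 32968 to 45595 UMIs), and in hypothalamic spots 20.1% to 29.6% did (median depth 15432 to 23907). Single Pomc UMIs outside hypothalamic spots were read as background.

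The 40 Pomc-high spots of the Hcrt and Pmch cluster lay in young 1 (6), middle 1 (20) and middle 2 (14). All 40 held Cartpt, with a median of 21.5 UMIs and a range of 4 to 162, and 39 of them held no UMI of Gh, the growth hormone gene of the anterior pituitary. Their other peptides followed the section. The 20 of middle 1 held 3 to 263 Avp UMIs (median 25.5), and 19 of all 21 Pomc-high spots there were also Avp-high. In middle 2, all 15 Pomc-high spots were Cartpt-high and 12 were Gal-high. In young 1 the 6 spots held 6 to 24 Cartpt UMIs and at most 1 Gal UMI.

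The 6 Pomc-high spots of young 2 differed from those 40. All lay in the meningeal cluster led by Mgp and Ptgds (3 spots) or in the white matter cluster (3 spots), and held 0 or 1 Cartpt UMI, 88 to 575 Ptgds UMIs and 1 to 54 Gh UMIs (median 21.5). The 10 pituitary genes on the fixed list summed to 144 UMIs in these 6 spots, 135 of them from Gh, or 1507 CPM. Tshb, Lhb, Fshb, Pitx1, Pou1f1 and Tbx19 were at 0 there. Over whole sections the list summed to 5.48 CPM in young 2, where Gh was its most abundant gene, and 2.14 to 2.54 CPM in the others. Young 1 held another 6 Pomc-high spots outside the hypothalamic clusters, at 5 or 6 Pomc UMIs and 0 to 4 Gh UMIs. The pituitary list summed to 10 UMIs there, all from Gh, or 54.0 CPM. It was at 2.16 CPM over the whole of young 1 and at 0 in its 6 hypothalamic Pomc-high spots. The part of pituitary tissue in the Pomc counts of young 1 and young 2 was not tested.

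**Figure D4:**
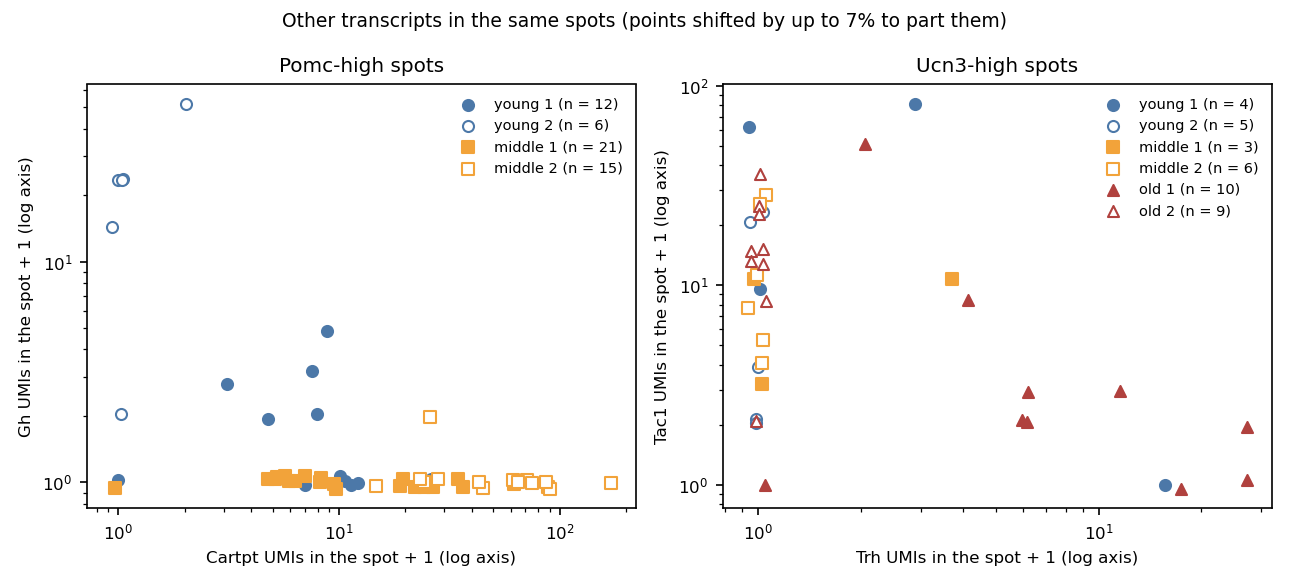
UMIs (plus 1, log axes) of other transcripts in each high spot, 1 point per spot, symbols by section. Left, Pomc-high spots by Cartpt and Gh, where 5 young 2 spots stand at 14 or more Gh UMIs with at most 1 Cartpt UMI; right, Ucn3-high spots by Trh and Tac1, where the 9 spots of the Hcrt and Pmch cluster (1 in young 1 and 8 in old 1) hold 3 to 27 Trh UMIs, and the other spots hold 0 to 3 Trh UMIs and 0 to 81 Tac1 UMIs.

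Against all other spots of the same 4 sections, 370 genes were higher in Pomc-high spots and 817 lower by edgeR's quasi-likelihood test with section as a block and Benjamini-Hochberg adjustment (2.33% of 15868 genes higher, 7.48% called in either direction). With RLE scaling the split was 502 higher and 587 lower. The leading genes were Ifi27l2a (53.0 ± 18.7 against 7.14 ± 1.87 CPM, SD, n = 4), Gpx3 (log2 ratio 3.26), Tmie (2.40), Asb4 (4.74) and Ucp2 (1.85), each higher in 4 of 4 sections. Of 17 arcuate and feeding circuit genes tested, 10 were higher and none lower, with a list median of 1.88 against -0.09 over all genes. They included Ghrh (5.59), the transcription factors Six6 (5.82), Otp (3.43), Tbx3 (2.61) and Nhlh2 (1.94), and the incretin receptor Glp1r (3.36). Mc3r, a receptor for Pomc products that arcuate neurons themselves carry, was higher by 2.91. Agrp (5.34), Trh (2.13) and Nts (1.24) passed among the other peptides of the 7, whereas Cartpt (3.35, adjusted p = 0.257) and Gal (3.31, adjusted p = 0.314) did not pass. Without young 2 Cartpt passed by edgeR (3.88 ± 0.19, SE), and Gal did not (3.69, adjusted p = 0.199). The Pomc-high spots of young 2 held at most 1 Cartpt UMI, so leaving out that section favours a pass for Cartpt and adds no support. All 88 Agrp UMIs of Pomc-high spots were in middle 2, and without middle 2 none of the other 6 peptides passed (adjusted p = 0.877 for Agrp, 0.172 for Trh and 0.663 for Nts). Nts was also lost without middle 1, and by DESeq2 Trh alone passed. Ghrh, Six6, Otp and Serpina3n kept their calls with each section left out, but Tbx3, Nhlh2, Glp1r, Ghr, Prlr, Th and Mc3r lost theirs without middle 1 and without middle 2.

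Within the Hcrt and Pmch cluster alone, Pomc-high spots could be set against other spots in young 1, middle 1 and middle 2 (40 against 570 spots). The cluster is led by markers of several nuclei, Oxt and Pmch among them, so the other spots need not be of the same nucleus. This comparison was chosen after the data had been seen. There 43 genes were higher (0.411% of 10456), and those with the largest smallest ratio over the sections were the receptor gene Npy1r, Asb4, Npy, Sst and Cited1. Sst, the somatostatin gene, was at 964 ± 256 CPM in the Pomc-high spots and 295 ± 12.1 CPM in the others (SD, n = 3, log2 ratio 1.62, edgeR adjusted p = 3.11e-24). Npy1r, which encodes a receptor of neuropeptide Y, was at 62.3 ± 27.1 against 11 ± 0.651 CPM (2.23, edgeR adjusted p = 9.53e-06). Npy, a peptide of the Agrp neurons, was at 238 ± 262 against 45.7 ± 36.1 CPM (2.32), with a wide spread between sections. Ghrh (2.20), Six6 (1.92), Serpina3n (1.26), Pdyn (0.97) and Gal (0.71, edgeR adjusted p = 0.0399) were also higher. Hcrt, the orexin gene of the lateral hypothalamus, was lower by 4.14 on the log2 scale, as were Pvalb (-2.5), Prkcd (-3.27) and Htr2c (-1.28). Cartpt did not pass here (1.22 ± 1.13, SE).

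Agrp counted 21, 22, 25, 201, 24 and 36 UMIs from young 1 to old 2. Its 7 high spots, all in middle 2, held 35, 25, 25, 11, 10, 9 and 6 UMIs, which is 60.2% of that section's Agrp. No spot of any other section held more than 2. Of the 7 spots 4 lay in the Hcrt and Pmch cluster and 3 in the meningeal cluster led by Mgp and Ptgds. All 7 were also high for Npy, Cartpt and Pmch, with 10 to 77, 20 to 88 and 7 to 25 UMIs, 5 were Pomc-high and 5 Gal-high. Pmch was abundant in middle 2, at 929 CPM over all spots and up to 4060 UMIs in 1 spot. Its 7 to 25 UMIs thus do not show a rise of Pmch in the 7 spots. With 1 section there is no test, and intervals cover counting error only. Among genes with at least 20 UMIs in the 7 spots the largest ratios to the rest of middle 2 were those of Pomc (507 CPM, 95% Poisson interval 399 to 634, against 7.84 CPM), Otp (167 against 2.89 CPM), Crabp1 (367 against 7.03 CPM), Irs4 (333 against 7.86 CPM) and Asb4 (167 against 4.59 CPM). Otp is a transcription factor that Agrp neurons need, and Irs4 an insulin receptor substrate. In hypothalamic spots Agrp was 12.8 CPM in middle 2 and 0.254 to 2.64 CPM elsewhere.

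Cartpt had both a hypothalamic and a cortical part. Section totals were 2264, 2900, 6748, 10785, 1861 and 4021 UMIs, or 29.4, 37.4, 88.5, 143, 27.0 and 66.0 CPM, and high spots numbered 116, 149, 207, 298, 79 and 187. Both middle sections were above all young and old sections. A median Cartpt-high spot held 8 to 15 UMIs, and the highest held 41, 85, 303, 318, 68 and 113. In hypothalamic spots Cartpt was 82.5, 279, 586, 851, 101 and 310 CPM. The sections without Pmch cells, young 1 and old 1, were the lowest there.

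In the Hcrt and Pmch cluster 392 of 1093 spots were Cartpt-high, at 650 ± 704 CPM (SD over 6 sections, 95.7 to 1867). Of all Cartpt-high spots 349 were also Pmch-high, which is 33.7% of the Cartpt spots and 40.5% of the Pmch spots. They numbered 25, 111, 153 and 60 in young 2, middle 1, middle 2 and old 2 and 0 in young 1 and old 1. Overlap with Hcrt was 172 spots, 16.6% of the Cartpt spots and 45.3% of the Hcrt spots. A Pmch cell type that also makes Cartpt is textbook knowledge for mouse lateral hypothalamus, but a spot with both transcripts need not hold them in 1 cell.

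Outside the hypothalamus, 245 Cartpt-high spots lay in clusters named isocortex (48, 38, 41, 57, 19 and 42 per section). Most, 192, were in the cluster led by Rspo1 and Kcnab3, where 24.4% of spots were Cartpt-high. Clusters that best matched isocortex but stayed unnamed held more. They were led by Trbc2 and Ighm (42 Cartpt-high spots), by Fezf2 and Myl4 (19) and by Cdhr1 and Igfn1 (19). The last also held 20 Nts-high spots, so a cortical part is not particular to Cartpt. Isocortical Cartpt was 55.9, 42.4, 54.6, 89.3, 27.8 and 73.8 CPM, and the order of the ages was not kept in both replicates. The habenula cluster, led by Gm5741, Gng8 and Gpr151, had 29 Cartpt-high spots of 238 (12.2%) and the striatum cluster 35 of 1090 (3.21%).

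Against all other spots 2365 genes were higher in Cartpt-high spots (14.7% of 16044, 31.5% called in either direction), led by Rspo1 (2.05), Gpx3 (2.46), AW551984 (2.28), Kcnab3 (1.44) and Cbln4 (1.70). Rspo1 and Kcnab3 are leading genes of the cortical cluster, and Gpx3 is one of the hypothalamic cluster. Of 16 peptide processing and granule genes 10 were higher and 2 lower, with a median of 0.39 against -0.0002 over all genes. Trh (2.52), Nts (1.69) and Ucn3 (3.83) were higher in Cartpt-high spots, also with each section left out. Gal (2.75, adjusted p = 0.0277) passed with young 1 left out but with none of the other 5 sections left out (adjusted p up to 0.0858), while Pomc (2.00, adjusted p = 0.0544) and Agrp (2.22, adjusted p = 0.150) did not pass. All 1036 Cartpt-high spots, whatever their cluster, were also set against other spots of the 3 clusters with most of them. In that comparison 299 genes were higher (2.2% of 13591). Gng8 (4.29) of the habenula, a cluster not among the 3, led with Nr4a2 (1.69), Necab3 (1.27), Lamp5 (0.96) and Tesc (0.85).

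Within the Hcrt and Pmch cluster alone, 392 Cartpt-high spots were set against 701 others in 6 sections, and 39 genes were higher (0.357% of 10923). The leading genes differed by less than 0.6 on the log2 scale. Rcn1, a calcium-binding protein of the secretory pathway, was at 72.9 ± 18.2 against 49.5 ± 11.9 CPM (SD, n = 6, log2 ratio 0.57, edgeR adjusted p = 0.00286). Pcbd1 (0.44), Tmem130 (0.29), Tceal3 (0.35) and Ssr4 (0.35) followed, each higher in 6 of 6 sections. Of 16 processing and granule genes Resp18 (0.38) and Qpct (0.47), the glutaminyl cyclase that caps peptide ends, were higher and none was lower, with a median of 0.13 against 0.01 over all genes. Isl1 (0.88), a transcription factor of arcuate neurons, and Ecel1 (0.73) were higher, and Sort1 (-0.37) and Pvalb (-0.66) were lower. None of the other peptides of the 7 passed within the cluster. The largest, Pomc (2.12 ± 0.70, SE), had an adjusted p of 0.384 by edgeR.

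Trh was highest in the sections that held Oxt. Its totals were 1037, 404, 823, 619, 1098 and 425 UMIs, or 13.5, 5.21, 10.8, 8.23, 15.9 and 6.97 CPM, and its high spots 54, 18, 49, 24, 56 and 13. The 3 sections with Oxt transcripts (young 1, middle 1 and old 1) were above the 3 without, whatever their age. The highest spots held 38, 11, 48, 25, 69 and 10 UMIs. In hypothalamic spots Trh was 81.7, 16.6, 75.0, 38.7, 112 and 29.3 CPM.

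The peptides found with Trh also changed with the level. In old 1, 45 of 56 Trh-high spots were Avp-high and 43 Oxt-high, with medians of 51 Avp and 44 Oxt UMIs. In young 1 only 13 of 54 were Avp-high and 9 Oxt-high. In middle 1 and middle 2 Pmch was high in 36 of 49 and 20 of 24 Trh-high spots. It was abundant in both, at 590 and 929 CPM over whole sections. Trh-high and Nts-high spots had 3 in common, all in middle 2, or 1.40% of the Trh spots and 0.838% of the Nts spots, where 2.14% of all spots were Nts-high and 1.28% Trh-high. A second site was the cluster led by Six3, Spp1 and Pvalb, genes of the reticular thalamus and pallidum, which held 37 Trh-high spots, 11.2% of its 330. In young 2 and old 2 it held most of them, 11 of 18 and 7 of 13, against 2 and 4 in the Hcrt and Pmch cluster. Its mean Trh was 106 ± 63.4 CPM against 127 ± 96.1 CPM in the Hcrt and Pmch cluster (SD over 6 sections), a difference within their spread.

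In Trh-high spots 1067 genes were higher than in all other spots (6.78% of 15737, 17.6% called in either direction). Dlk1 (3.23), Six3 (3.16), Otp (4.53), Kcnip1 (1.97) and Vat1l (1.73) led. Otp, which paraventricular neurons need to form, was at 79.6 ± 81.6 against 3.14 ± 0.513 CPM (SD, n = 6, edgeR adjusted p = 0.00754). Of 8 reticular thalamus and pallidum genes Gad2, Ecel1, Isl1 and Six3 were higher and none was lower (median 1.88 against -0.03 over all genes). Cartpt (2.93, adjusted p = 0.031) and Gal (3.50, adjusted p = 0.0334) passed, and each lost its call in 4 of 6 fits with a section left out. Without middle 1, old 1 or old 2 neither passed, Cartpt did not without young 1 and Gal did not without young 2 (adjusted p up to 0.1 for Cartpt and 0.120 for Gal). Six3 was lost without middle 1, middle 2 or old 1 (adjusted p up to 0.0721). Nts was not called (0.59 ± 0.68, SE, edgeR adjusted p = 0.660). All 214 Trh-high spots were also set against other spots of the Hcrt and Pmch cluster and the Six3 cluster. No gene passed by edgeR (0 of 11310), 504 genes had an unadjusted p under 0.05, and DESeq2 was not run. Within the Hcrt and Pmch cluster none was higher (0 of 10316) and 1 lower, with 641 genes at an unadjusted p under 0.05.

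Gal was highest in middle 2. Its totals were 373, 475, 501, 1255, 362 and 466 UMIs, or 4.85, 6.12, 6.57, 16.7, 5.24 and 7.65 CPM, and high spots numbered 13, 18, 25, 64, 8 and 20. The other middle section lay within the range of the young and old ones by CPM. The highest spots held 48, 67, 44, 67, 27 and 21 UMIs, and hypothalamic Gal was 24.6, 76.1, 49.3, 111, 31.0 and 54.8 CPM. Of 148 Gal-high spots 101 were in the Hcrt and Pmch cluster and 29 in the Baiap3 and Hap1 cluster.

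Many Gal-high spots also held Pmch transcripts in the sections that had them. Pmch was high in 57 of 64 Gal-high spots of middle 2, 18 of 25 of middle 1, 12 of 20 of old 2 and 8 of 18 of young 2, in all 95 spots (64.2% of the Gal spots and 11% of the Pmch spots). Cartpt was high in 86 Gal-high spots, 58.1% of the Gal spots and 8.30% of the Cartpt spots, 54 of them in middle 2. In young 1 and old 1, where Pmch was scarce, 4 of 13 and 4 of 8 Gal-high spots were Avp-high, with up to 1385 and 1563 Avp UMIs.

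Against all other spots, 1448 genes were higher in Gal-high spots and 2479 lower (9.24% of 15679 higher, 25% called in either direction), and with RLE scaling 1835 were higher and 2011 lower. Avp (4.96), Gabrq (3.72), Dlk1 (3.48), AW551984 (3.03) and Zcchc12 (2.01) led. Of 20 other hypothalamic peptides 12 were higher and 2 lower (median 1.41 against -0.08 over all genes), among them Ghrh (5.10), Avp, Npvf (3.59), Hcrt (3.41), Oxt (2.76) and Pmch (2.5), while Cck (-2.70) and Vip (-2.82) were lower. Of 12 receptors and peptidases 6 were higher and 2 lower, including Mc3r (2.84) and the galanin receptor Galr1 (2.15). Of the 7 peptides Nts (2.56) was higher, also with each section left out. Agrp (4.22) passed too, but could not be tested without middle 2 and was not called by DESeq2 (adjusted p = 0.238). Cartpt (3.13), Trh (3.37) and Ucn3 (1.89) passed over all 6 sections and lost their calls in 5, 4 and 2 of 6 fits with a section left out (adjusted p up to 0.0963, 0.0658 and 0.052). Without young 2 or old 1 all 3 were lost, without middle 1 or old 2 Cartpt and Trh, and without middle 2 Cartpt alone. Of the other genes named, Hcrt was lost with any section left out (adjusted p up to 0.139), Oxt without young 2, middle 2, old 1 or old 2, and Galr1 without young 1, young 2 or middle 1. Pomc was not called (1.98, adjusted p = 0.19). With all 148 Gal-high spots kept, whatever their cluster, and other spots taken from both hypothalamic clusters, 27 genes were higher (0.228% of 11819). Anxa5, Tmem176b, Pdyn, Prdx4 and Celf6 led at 0.63 to 0.77.

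Within the Hcrt and Pmch cluster 95 Gal-high spots were set against 710 others in young 2, middle 1, middle 2 and old 2, and 28 genes were higher (0.259% of 10814). Asb4 was at 94.7 ± 52.6 against 32.9 ± 11.6 CPM (SD, n = 4, log2 ratio 1.56, edgeR adjusted p = 1.02e-07). Ghrh, the releasing hormone gene of arcuate neurons, was at 80.5 ± 94.0 against 12.4 ± 9.25 CPM (2.72), with a spread between sections that exceeded the mean. Gabrq (0.83), Peg10 (0.81) and Magel2 (0.79), a gene of the Prader-Willi interval, followed. Grp (1.61), Pdyn (0.69) and Glp1r (1.54) of the fixed lists were also higher. Asb4, Ghrh and Pdyn passed in Pomc-high spots of this cluster too, and 13 spots were high for both Gal and Pomc, 12 of them in middle 2.

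Nts differed least between sections in hypothalamic spots. There it was 75.0, 77.2, 86.8, 112, 85.1 and 70.7 CPM, against whole-section values of 13.7, 9.71, 13.3, 22.4, 14.2 and 20.7 CPM. Totals were 1053, 753, 1018, 1682, 978 and 1259 UMIs, high spots 54, 35, 58, 92, 56 and 63, and the highest spots 30, 30, 27, 45, 39 and 68 UMIs. The Baiap3 and Hap1 cluster held 192 of the 358 high spots (22.5% of its spots), the striatum cluster led by Adora2a held 58, and the Hcrt and Pmch cluster 53. Mean Nts in these clusters was 109 ± 20.2, 55 ± 36.6 and 52.5 ± 41.4 CPM (SD over 6 sections), and the last pair did not differ beyond their spread.

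Of 358 Nts-high spots 243 were also high for the enkephalin gene Penk (67.9% of the Nts spots and 6.69% of the Penk spots), and 86 were Tac2-high. Penk was abundant, at 176 to 292 CPM over whole sections, and is a leading gene of the striatum cluster, which held 58 Nts-high spots. The overlap alone thus does not set Nts-high spots apart. In Nts-high spots 2508 genes were higher than in all others (15.8% of 15899, 35.9% called in either direction), led by Baiap3 (2.53), Ngb (2.43), AW551984 (2.45), Ecel1 (2.21) and Hap1 (2.13). Of 9 medial and central amygdala genes 8 were higher, among them Gpr101 (2.74), Dlk1 (2.09) and Tac2 (2.08), and Prkcd (-2.16) was lower (list median 1.48 against -0.03 over all genes). The neurotensin receptor Ntsr1 was higher by 1.2, and Galr1 (1.73), Mc4r (1.92) and Trhr (1.70) were higher too. Of 11 tanycyte and ependymal genes 6 were lower and 3 higher. Gal (2.14) and Ucn3 (4.0) were higher, also with each section left out. Cartpt (1.36, adjusted p = 0.0238) passed but was lost without young 1, middle 2, old 1 or old 2 (adjusted p up to 0.0723), and Trh was not called (-0.29, adjusted p = 0.659). All 358 Nts-high spots, whatever their cluster, were also set against other spots of the 3 clusters with most of them. In that comparison 349 genes were higher (2.7% of 12911), led by Pde1a (0.83), Cnih3 (0.97), Epha5 (0.60), Pcdh8 (0.76) and Hpcal4 (0.49).

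Within the Baiap3 and Hap1 cluster 192 Nts-high spots were set against 660 others in 6 sections, and 18 genes were higher (0.168% of 10717). Rgs2, a regulator of G-protein signalling, was at 148 ± 24.9 against 97.4 ± 10.3 CPM (SD, n = 6, log2 ratio 0.60, edgeR adjusted p = 4.69e-10) and higher in 6 of 6 sections. Meis2 (0.46), Necab1 (0.36), Lrpprc (0.34) and Gad2 (0.31) followed, and the GABA-synthesis genes Gad1 (0.18) and Gad2 were higher together with Six3 (0.70). Trh was lower by 2.18 on the log2 scale (edgeR adjusted p = 7.29e-06), as were Otp (-1.32) and Adcyap1 (-0.92), a peptide of excitatory neurons.

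Ucn3 was rare and marked separate sites. Its totals were 129, 114, 45, 129, 139 and 206 UMIs, its high spots 4, 5, 3, 6, 10 and 9, and its highest spots 40, 30, 7, 23, 17 and 39 UMIs. Middle 1 was lowest by every one of these counts. In hypothalamic spots it was 13.8, 22.8, 5.59, 12.8, 21.1 and 30.1 CPM, so that young 2 lay above old 1. Of the 37 high spots 27 were in the Baiap3 and Hap1 cluster, 9 in the Hcrt and Pmch cluster and 1 in an unnamed cluster led by Cdhr1 and Igfn1.

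The 9 Ucn3-high spots of the Hcrt and Pmch cluster were 8 in old 1 and 1 in young 1, the sections with Oxt and little Pmch. They held 3 to 27 Trh UMIs (median 11), 6 to 50 Oxt UMIs and no Nts, and Tac1 was at most 7. The 27 of the Baiap3 and Hap1 cluster held 0 to 3 Trh UMIs, and the substance P gene Tac1 at a median of 11 UMIs (up to 81). Nts was found in 25 of these 27 and Cartpt in 25. The 2 old sections reached like counts from different sites, since all 9 spots of old 2 were in the Baiap3 and Hap1 cluster and 8 of 10 in old 1 were not.

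In the 4 sections with at least 5 Ucn3-high spots, 526 genes were higher than in all other spots and 950 lower (3.37% of 15614 higher, 9.45% in either direction), and with RLE scaling 655 were higher and 775 lower. The median over all genes was -0.14, so ratios are relative to that. Baiap3 (2.94), Gpx3 (2.74), Lbhd2 (3.26), Ecel1 (2.65) and AW551984 (2.57) led. Of 9 medial and central amygdala genes Gpr101 (2.79), Ecel1, Dlk1 (2.36), Tac1 (2.35) and Lhx6 (2.26) were higher and Prkcd (-3.67) lower, with a median of 2.26. Galr1 (3.89), Mc4r (2.36) and Trhr (1.85) were higher, and Pmch (-5.88) and Hcrt (-6.32) lower. Without 1 section Dlk1 (young 2), Galr1 (old 2), Mc4r (middle 2 or old 2) and Trhr (middle 2 or old 1) were not called. Of the 7 peptides only Nts (3.13) passed, also with each section left out. With all 30 Ucn3-high spots of these sections kept and other spots taken from both hypothalamic clusters, 12 genes were higher (0.104% of 11588). Among them were the granule peptide gene Vgf (0.88), Tac1 (0.99), Scg2 (0.55) and Nrxn3 (0.70), and Gal was lower (-1.57, edgeR adjusted p = 0.00067). Within the Baiap3 and Hap1 cluster 2 sections had enough spots, so no test was made.

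**Figure D5:**
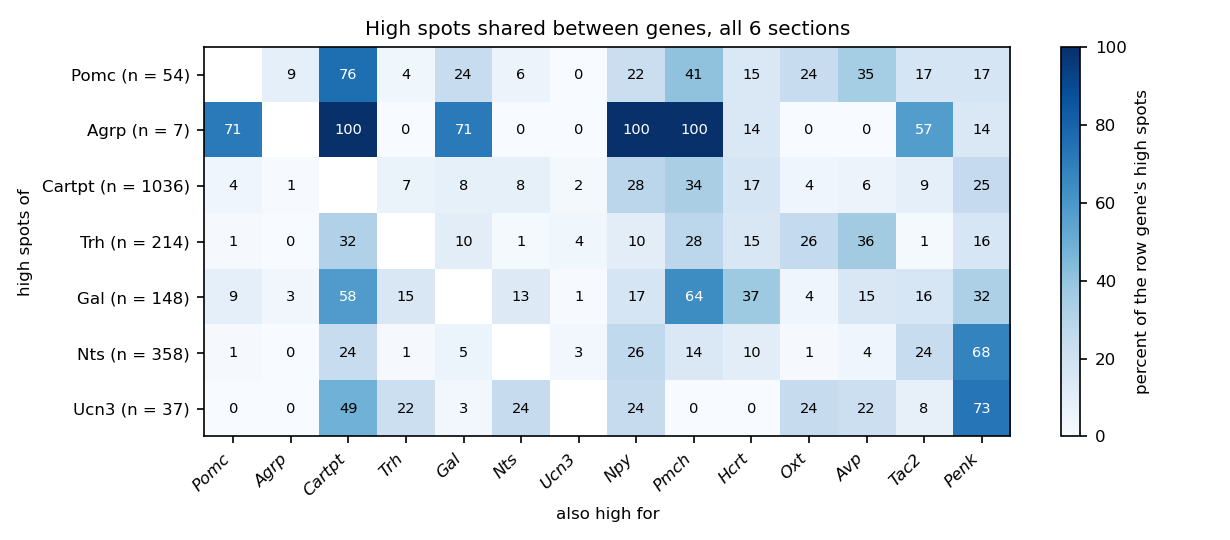
Percent of the high spots of the gene in each row that were also high for the gene in each column, all 6 sections pooled. All 7 Agrp-high spots are high for Cartpt, Npy and Pmch, and 76% of Pomc-high spots are high for Cartpt. Of Nts-high and Ucn3-high spots 68% and 73% are high for Penk. The share of all spots that are high for each column gene is not drawn, and Pmch and Penk are abundant genes.

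Across all spots of a section, as a description over 14694 genes compared, the genes most like each peptide were mostly the shared hypothalamic ones. The mean Pearson r over the 6 sections was 0.22 for Pomc with Gpx3, followed by Irs4 (0.19), Baiap3 (0.19), Cartpt (0.18) and Asb4 (0.18). It was 0.47 for Cartpt with Gpx3, followed by Baiap3 (0.46) and Resp18 (0.45). Trh was most like Otp (0.34), Gal like Gpx3 (0.38) and Dlk1 (0.38), Nts like Hap1 (0.38) and Baiap3 (0.38), Ucn3 like Baiap3 (0.20) and Agrp like Irs4 (0.11). Spots of a section share library and depth, so these values carry no test.

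By age, none of the 7 genes passed the test in any of 6 comparisons by edgeR or by DESeq2. Over whole sections 0.164% of genes were called between old and young, 0.0679% between middle and young, and 0 between old and middle by edgeR. In hypothalamic spots the shares were 0.0359%, 0.0431% and 0. Genes at an unadjusted p under 0.05 numbered 2246, 1382 and 361 over whole sections and 768, 562 and 276 in hypothalamic spots.

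Pomc was lower in both old sections than in every young and middle section. Between old and young whole sections its log2 fold change was -0.58 ± 0.22 (SE, unadjusted p = 0.0428, edgeR adjusted p = 0.373). Between old and middle it was -0.90 ± 0.22 (unadjusted p = 0.00694, edgeR adjusted p = 1.00) over whole sections and -2.19 ± 0.68 in hypothalamic spots (edgeR adjusted p = 1.00). Of the sections with Oxt and little Pmch, young 1 had 12 Pomc-high spots and old 1 had none. In young 1, 6 of the 12 lay in hypothalamic clusters and the other 6 had the Gh values described above. These sections were not cut alike, with hippocampus at 2.49% of spots in young 1 and 9.65% in old 1. Of the sections with Pmch and little Oxt, young 2 had 6, with the Gh transcripts described above, middle 2 had 15 and old 2 none. The exact permutation test of the share of high spots, counted in any cluster, gave p = 0.0667 for Pomc (0.35 adjusted over the 7 genes). That is the smallest p that 90 assignments of 2 sections to each of 3 ages allow. In hypothalamic clusters alone Pomc-high spots numbered 6, 0, 20, 14, 0 and 0 from young 1 to old 2, so young 2 stood with the old sections there. Ghrh was at 48 and 52 UMIs in the old sections, 125 and 316 in the middle ones and 69 and 27 in the young ones. Age and placement cannot be told apart here.

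None of the other 6 genes passed either. Cartpt was higher in middle than in young sections by 1.77 ± 0.56 (unadjusted p = 0.039, edgeR adjusted p = 0.606), in the sections with most Pmch. Agrp differed by 2.39 ± 1.1 between middle and young (edgeR adjusted p = 0.678), with middle 1 at 25 UMIs and middle 2 at 201. Nts in hypothalamic spots was 0.37 ± 0.12 higher in middle than in young (unadjusted p = 0.00815, edgeR adjusted p = 0.999), with both middle sections above both young ones, and its change from middle to old was -0.38 ± 0.12. Ucn3 differed by 1.42 ± 0.46 between old and middle hypothalamic spots (unadjusted p = 0.0338, edgeR adjusted p = 1.00). Trh differed by 0.24 ± 0.68 between old and young and Gal by 0.18 ± 0.51, both smaller than their errors. Exact p values of the share of high spots were 0.2 to 1 for these genes.

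Of the fixed lists, 1 gene passed by age. Tac2, the neurokinin B gene, was higher by 0.83 in old than in young whole sections (edgeR adjusted p = 0.0038) and by 0.60 in middle than in young (edgeR adjusted p = 0.0293, lost without middle 1, middle 2, old 1 or old 2, up to 0.274), at 24.3 and 27.7 CPM in the young, 39.8 and 39.9 CPM in the middle and 49.2 and 46.5 CPM in the old sections, which did not overlap. The call between old and young held with each section left out. Tac2 is among the leading genes of the habenula cluster, which took up 10 and 46 spots of the young sections, 35 and 42 of the middle sections, and 50 and 55 of the old sections, and the part of that difference was not tested. It was the only called gene of the other hypothalamic peptides (25 tested), the arcuate and feeding circuit list (19 tested) and the amygdala list (10 tested). Among 16 processing and granule genes, 13 receptors and peptidases and 12 tanycyte and ependymal genes none was called in whole sections, with list medians between -0.11 and 0.06. In hypothalamic spots no gene of any list was called.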

How the data were processed

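Visium spatial transcriptomes of 6 mouse brain sections, 2 per age, were analysed from the deposited raw UMI count matrices. Per the file headers the authors' counts came from Space Ranger 1.3.1, and the genome build was mm10, per the submitters' processing notes. No filter beyond the spots over tissue was found in the files, and 2 spots under 500 UMIs were left out here. Spots were clustered with scanpy 1.11.5 and leidenalg 0.10.2 (resolution 0.8) without the 7 genes, mitochondrial and haemoglobin genes, and 10 of 25 clusters stayed unnamed. A cluster was named from at least 3 markers among its 50 leading genes and 1 among the first 10. It also needed at least 2 times as many markers as the next region had. Counts were summed per section, over all spots, over hypothalamic spots, or over high and other spots, and fitted over all genes with edgeR 4.0.16 in R 4.3.3 (quasi-likelihood test, TMM scaling, Benjamini-Hochberg adjustment, called under 0.05). High against other spots used the section as a block, over sections with at least 5 high spots. Where the other spots were limited to some clusters, high spots of every cluster were kept, except in the comparisons within 1 cluster. Named genes were those called higher with the largest smallest log2 ratio over the sections, at a mean of at least 50 CPM in high spots. DESeq2 1.42.0, other scalings, filters, thresholds, thinning, blocks and left-out sections were alternatives, and scripts were tested on simulated data. P-values measure the spread between sections only. The 7 genes and the lists were chosen with earlier results of these data known. Some genes that met the naming rule are not reported here.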

Additional observations from a re-analysis of the deposited data

How the results depend on the processing

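Among 669 values of the 7 genes recomputed by age, 6 passed the test, all in hypothalamic spots. They were Nts between middle and young with no filter on low counts (0.37, edgeR adjusted p = 0.0351), Ucn3 with the replicate block (-1.02 between middle and young, adjusted p = 0.0343, and 1.47 between old and middle, adjusted p = 0.00163), Agrp between middle and young without middle 1 (4.16, adjusted p = 0.0031), and Pomc without middle 2 (1.85 between middle and young, adjusted p = 0.00276, and -2.74 between old and middle, adjusted p = 0.000165). Leaving out a middle section leaves 1 sample, assumed to vary like the others. A reversal was counted only where a changed sign came with a call, and there was none. Changes of sign between values that were not called were not counted. The cause of the moves was not tested. The number of the 7 genes called in hypothalamic spots between middle and young was thus 1 with no filter, 1 with the replicate block and 0 to 1 over left-out sections. Between old and middle it was 1 with the replicate block and 0 to 1 over left-out sections.

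Genes called between old and young whole sections numbered 29, against 194 by DESeq2, 113 with no filter, 7 with a slide block, 52 with the same number of spots from each cluster and 6 to 75 over left-out sections. Between middle and young they numbered 12, against 70 by DESeq2, 58 with no filter, 6 with at least 10 counts in every section, 3 with slide as a block, 3 with placement as a block, 5 when thinned, 37 with equal spots per cluster and 1 to 33 over left-out sections. Between old and middle they numbered 0, and 0 to 1 over left-out sections. In hypothalamic spots the 5 between old and young became 56 with no filter, 9 with placement as a block and 3 to 9 over left-out sections. The 6 between middle and young became 45 with no filter, 3 with slide, 22 with placement as a block and 5 to 12 over left-out sections. The 0 between old and middle became 1 by DESeq2, 9 with no filter, 2 with placement as a block and 0 to 2 over left-out sections.

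Replicate numbers were not used to pair the samples in the main fits. Over the genes tested, deviations of same-numbered sections correlated weakly, at 0.019 to 0.241, with 1 of 3 pairs under 0.1. Oxt did follow the number, at 5382, 1803 and 35467 UMIs in young 1, middle 1 and old 1 and 33, 65 and 52 in young 2, middle 2 and old 2. With the replicate block 12, 14 and 2 genes were called in hypothalamic spots (old against young, middle against young, old against middle) and 21, 10 and 0 over whole sections.

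Genes higher in the same spots fell in number when the other spots were limited to clusters with at least 10% of the gene's high spots. These are called the same clusters here. High spots of every cluster stayed in that comparison, so it could still set unlike tissue side by side. Only the comparison within 1 cluster limited both the high and the other spots. For Pomc they were 12 against other spots of the same clusters, 43 within 1 cluster and 175 to 434 over left-out sections (175 without middle 1 and 201 without middle 2). For Cartpt they were 1513 at 10 UMIs or more, 299 in the same clusters, 39 within 1 cluster and 1822 to 2505 over left-out sections. For Trh they were 0, 0 and 665 to 1021 (703 without middle 1, 665 without middle 2, 697 without old 1). For Gal they were 702 at 10 UMIs or more, 27, 28 and 1094 to 1578, and for Nts 1321, 349, 18 and 2153 to 2598. For Ucn3 they were 12 in the same clusters and 274 to 464 over left-out sections (337 without middle 2, 274 without old 2). Ucn3 at 10 UMIs or more, Ucn3 within 1 cluster and all Agrp tests had too few sections. The placement block and the comparison within 1 cluster were chosen after seeing the data.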
